A study of Mus musculus with 10 samples.

Results

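The genes described here are the axon-guidance cues and receptors, 68 genes of the 24594 in the count table. They were selected by gene symbol, with earlier results of these data known. The set holds all Eph receptors and ephrins, semaphorins of classes 3 to 7, plexins, Slit and Robo genes. Added to these were Ntn1, Ntn4, Neo1, Dcc, Unc5a, Unc5b, Unc5c, Unc5d, Nrp1 and Nrp2. Of the 68 genes, 33 encode cues (ephrins, semaphorins, Slits and netrins) and 35 encode receptors. Expression was measured by bulk RNA sequencing in luminal and basal epithelial cells from the mammary gland of virgin wild-type C57BL/6J mice, with 5 libraries per cell type. All animals were wild type, and the labels state no treatment and no age. Cells had been freshly isolated from dissociated tissue and sorted on EpCAM and CD49f. The comparison addresses which members of each family differ in transcript level between the inner, luminal layer and the outer, contractile basal layer of the same epithelium.

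Library totals ranged from 13203146 to 17565471 counts in luminal and from 13676558 to 17998165 counts in basal libraries, so that 1 count corresponded to between 0.0527 and 0.0774 CPM, the count scaled to library depth. For each of the 10 libraries the title contradicts the cell type label, while both the source name and a letter (B or L) within the description match the label. The label was used here. Of markers of the basal layer such as Krt14 and Trp63, 8 of 8 were higher in the libraries labelled basal, and of luminal markers such as Krt8 and Prlr, 10 of 10 were higher in those labelled luminal (edgeR quasi-likelihood test, Benjamini-Hochberg adjusted p under 0.05). The summed basal markers of each luminal library came to between 0.261% and 0.746% of their mean in basal libraries. The summed luminal markers of each basal library came to between 8.06% and 12.1% of their mean in luminal libraries, most of it Krt8 and Krt18, at 21.7% and 14.2%. Elf5, Kit, Cd14 and Prlr were at 0.179%, 0.652%, 0.276% and 0.0835% of their luminal mean in basal libraries. In bulk libraries, fewer cells that express a gene and less RNA per cell cannot be told apart.

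Axon-guidance cues are secreted or membrane-bound proteins that attract or repel migrating cells and growing axons, and their receptors act largely by reorganising the actin cytoskeleton through small GTPases. Ephrins signal to Eph receptor tyrosine kinases between touching cells and can also signal backwards into the cell that carries them. Semaphorins signal through plexins, secreted class 3 semaphorins use neuropilins as co-receptors, Slits signal through Robo receptors, and netrins through DCC, neogenin and UNC5 proteins. In the mammary gland, netrin-1 with neogenin and Slits with ROBO1 are known for roles in the arrangement of the layers and in branching of the ducts.

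More members were higher in basal than in luminal cells. After removal of genes with low counts, 54 of the 68 members were tested among 14609 genes, and 14 members were not. Of the 54, 29 were higher in basal cells (53.7%, against 31.2% of all genes tested), 7 were higher in luminal cells (13%, against 33.6% of all genes tested) and 18 did not pass the threshold. Of the cues, 13 were higher in basal and 6 in luminal cells out of 30 tested, and of the receptors 16 were higher in basal and 1 in luminal cells out of 24 tested. With at least a 4-fold difference, 15 members were higher in basal cells (27.8%, against 10% of all genes tested) and 3 in luminal cells (5.56%, against 8.45%). The values of the libraries did not overlap between cell types for 26 members with basal higher (48.1%, against 25.3% of all genes tested) and 4 with luminal higher (7.41%, against 24.7%). The median log2 fold change, luminal against basal, was -0.74 over the 54 members and 0.05 over all genes tested. With at least 10 counts asked for in every library, which kept 41 members, the medians were -0.49 and 0.06, and 19.5% of the members were higher in luminal (34.5% of all genes) and 51.2% in basal cells (30.6% of all genes), with 27 of 29 calls shared with those above. Of the 54, 9 members (Efnb3, Ephb1, Nrp2, Robo2, Sema3b, Sema3e, Sema4g, Sema5a and Slit2) reached the filter in every basal library but not in every luminal one, and 5 (Dcc, Epha6, Nrp1, Sema6b and Slit1) the reverse. Such genes met the filter in the cell type named with them and would not have met it in the other alone. The counts thus describe the members tested and not the whole set. Scaling by library totals alone called 11 members for luminal (20.4%, against 39.1% of all genes tested) and 27 for basal cells (50%, against 25.4%), since it raised the median log2 fold change of all genes to 0.24. Upper-quartile factors raised that median to 0.17 and gave 10 members (18.5%, against 37.2% of all genes) and 28 members (51.9%, against 27.7%).

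**Figure D1:**
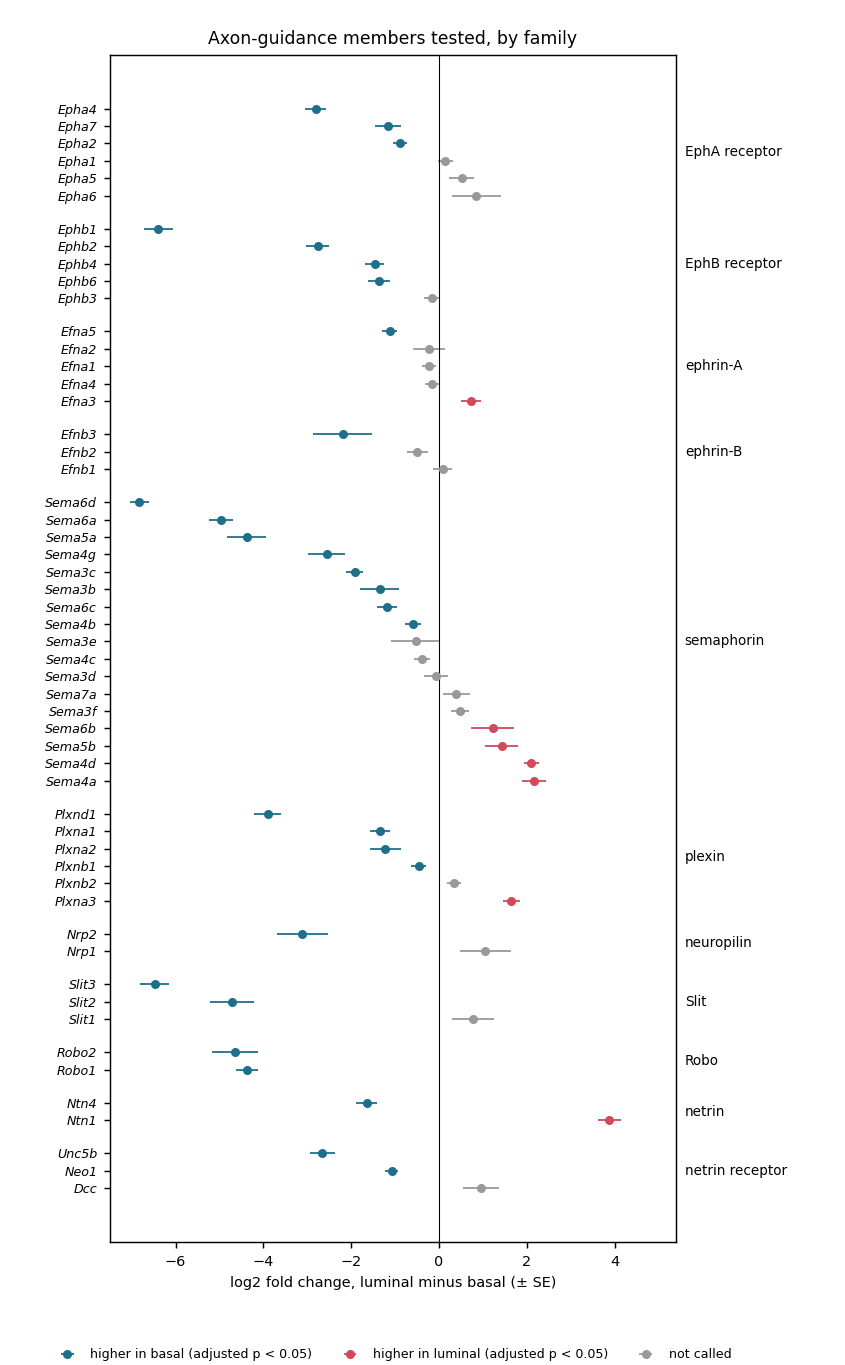
Log2 fold change of each of the 54 members tested, luminal minus basal, with its standard error as a horizontal bar; genes are grouped by family and coloured by the call at an adjusted p under 0.05 (blue, higher in basal; red, higher in luminal; grey, not called). Of the points, 29 are blue, 7 are red and 18 are grey, and values run from -6.83 for Sema6d to 3.88 for Ntn1.

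The 2 netrins of the set, Ntn1 and Ntn4, differed in opposite directions. Ntn3 and Ntn5, outside the set, had at most 5 and 4 counts in any library and were not tested. Ntn1 (Entrez 18208, GRCm38 chromosome 11, 68209364 to 68386826) encodes netrin-1, the laminin-related attractant first known from the spinal cord. It was at 411, 218, 188, 181 and 320.3 CPM in luminal replicates 1 to 5 and at 15.2, 25.2, 18.2, 13.7 and 17.3 CPM in basal replicates 1 to 5. Every luminal library lay above every basal one, with a log2 fold change of 3.88 (SE 0.264, adjusted p = 1.54e-08), the highest of the 54 members tested. Ntn4 (Entrez 57764, GRCm38 chromosome 10, 93641049 to 93745972), which encodes a netrin of basement membranes, was at 60.7, 35.3, 35.7, 27.6 and 42.7 CPM in luminal and 79.1, 159, 167, 120.2 and 109 CPM in basal replicates 1 to 5. Basal libraries were higher without overlap, at a log2 fold change of -1.65 (SE 0.234, adjusted p = 2.59e-05). Per kilobase of exon, Ntn1 was at 42.0 ± 15.8 CPM per kb (SD, n = 5) in luminal and 2.86 ± 0.709 in basal cells, and Ntn4 at 10.8 ± 3.35 and 34.0 ± 9.75.

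Of the 6 netrin receptors, 3 were tested, and 2 of these were higher in basal cells (66.7%, against 31.2% of all genes tested). Unc5b (Entrez 107449, GRCm38 chromosome 10, 60762594 to 60831581), which encodes a receptor for repulsive netrin signals, was at 60.5, 24.2, 36.3, 19.4 and 22.1 CPM in luminal and 188, 214, 248, 182 and 195 CPM in basal replicates 1 to 5. Its basal libraries were all higher, with a log2 fold change of -2.66 (SE 0.277, adjusted p = 1.2e-06). Neo1 (Entrez 18007, GRCm38 chromosome 9, 58874679 to 59036614), which encodes neogenin, a DCC-related receptor of netrins and repulsive guidance molecules, was at 42.8, 27.4, 30.8, 26.7 and 29.0 CPM in luminal and 61.6, 71.8, 74.3, 58.6 and 64.6 CPM in basal replicates 1 to 5. Again no luminal library reached the basal range (log2 fold change -1.08, SE 0.154, adjusted p = 2.77e-05). Dcc was at low levels, 1.02 to 3.05 CPM in luminal and 0.688 to 1.09 CPM in basal libraries, and was not called (log2 fold change 0.96, adjusted p = 0.0562). Without luminal replicate 5 the adjusted p of Dcc was 0.0421 at a log2 fold change of 1.09, and without both replicate 4 libraries it was 0.231 at 0.55. Unc5a, Unc5c and Unc5d stayed below 1 CPM in every library and were not tested. Ntn1 and the receptors Unc5b and Neo1 thus had their higher levels in different cell types, and Ntn4 and those receptors in the same one.

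**Figure D2:**
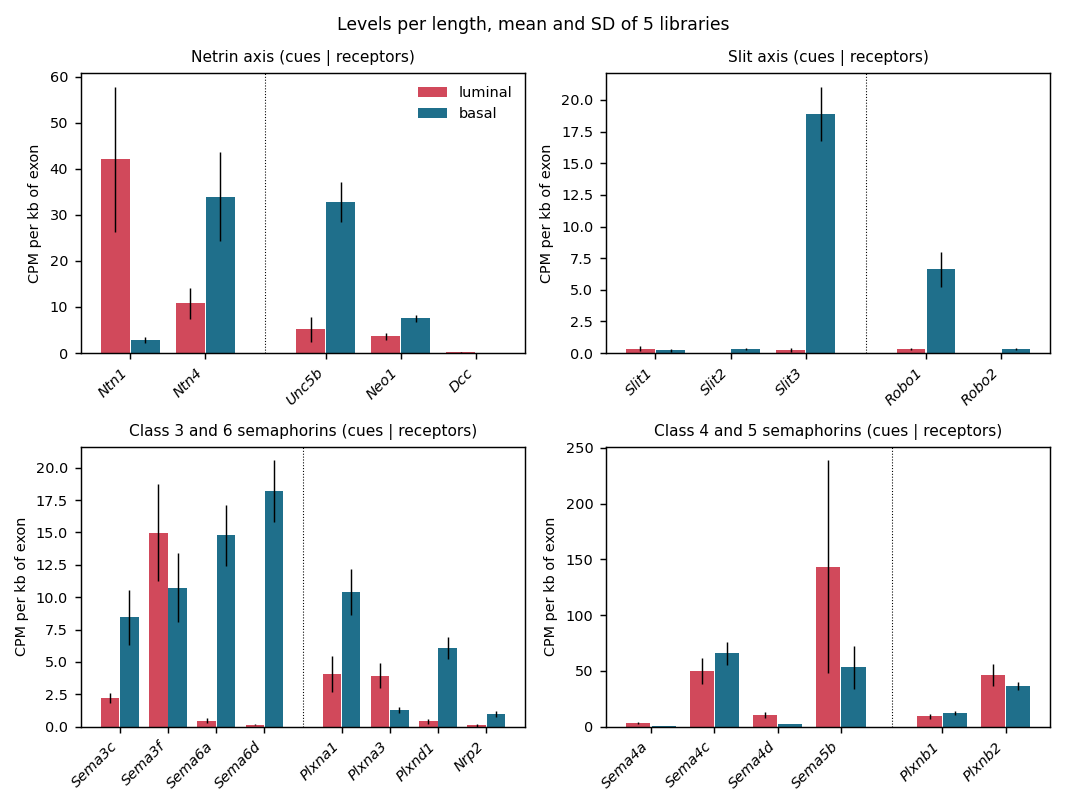
Mean level of selected cues (left of each dotted line) and receptors (right of it) in CPM per kilobase of exon, with the SD of 5 libraries as error bars, luminal in red and basal in blue. Ntn1 stands at 42.0 CPM per kb in luminal and 2.86 in basal cells, while Slit3 stands at 0.210 and 18.9.

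Of the Slits, 2 of 3 tested were higher in basal cells, and of the Robos 2 of 2, against 31.2% of all genes tested. Slit2 and Robo2 met the filter in every basal library and in 0 luminal ones, so they were tested only through their basal level. Slit1 met it in every luminal library but not in every basal one. Slit3 and Robo1 met it in all libraries, and Robo3 and Robo4 were not tested. Slits are large secreted ligands that repel axons, and Robos are their immunoglobulin-type receptors. Slit3 (Entrez 20564, GRCm38 chromosome 11, 35121456 to 35708507) was at 0.688, 1.00, 0.859, 0.840 and 2.98 CPM in luminal and 112, 133, 122, 99.6 and 106 CPM in basal replicates 1 to 5. All basal libraries lay far above the luminal ones, of which replicate 5 was the highest, and the log2 fold change came to -6.48 (SE 0.339, adjusted p = 1.22e-09). Slit2 (Entrez 20563, GRCm38 chromosome 5, 47981291 to 48307735) was at 0.188, 0.421, 0.307, 0 and 0.508 CPM in luminal and 8.79, 9.07, 11.3, 4.81 and 5.57 CPM in basal replicates 1 to 5. Luminal replicate 4 had no count, which allows up to 0.229 CPM, and the log2 fold change came to -4.71 (SE 0.499, adjusted p = 1.43e-06). Slit1 was at 0.888 to 3.63 CPM in luminal and 0.539 to 1.98 CPM in basal libraries and was not called (log2 fold change 0.78, adjusted p = 0.167). Per kilobase of exon, basal cells held 18.9 ± 2.17 CPM of Slit3, 0.311 ± 0.105 of Slit2 and 0.209 ± 0.0905 of Slit1 (SD, n = 5 each), so Slit3 was the most abundant Slit of the basal layer.

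Robo1 (Entrez 19876, GRCm38 chromosome 16, 72027518 to 73047491) was at 5.38, 5.85, 7.85, 3.13 and 4.19 CPM in luminal and 126, 129, 114, 72.1 and 107 CPM in basal replicates 1 to 5. Its groups were far apart, with a log2 fold change of -4.37 (SE 0.249, adjusted p = 2.83e-09). Robo2 (Entrez 268902, GRCm38 chromosome 16, 73891976 to 75447443) was at 0.188, 0.0527, 0.307, 0.534 and 0.0634 CPM in luminal and 5.99, 4.16, 7.20, 3.69 and 7.37 CPM in basal replicates 1 to 5. The luminal libraries held at most 7 counts of Robo2, and the log2 fold change came to -4.65 (SE 0.520, adjusted p = 2.46e-06). Robo4, known from endothelial cells, was not tested, at 0 to 0.184 CPM in luminal and 0.205 to 1.25 CPM in basal libraries. Robo3 had at most 2 counts in any library. The cues Slit2 and Slit3 and the receptors Robo1 and Robo2 thus had their higher transcript levels in the same sorted population.

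Semaphorins were the largest family, with 20 members. Of the 17 tested, 8 were higher in basal cells (47.1%, against 31.2% of all genes tested), 4 in luminal cells (23.5%, against 33.6%) and 5 were not called. Among them, Sema3b, Sema3e, Sema4g and Sema5a met the filter in basal cells alone and Sema6b in luminal cells alone. Class 6 semaphorins, transmembrane ligands that signal through A-type plexins, held the member with the largest difference of all. Sema6d (Entrez 214968, GRCm38 chromosome 2, 124089943 to 124667789) was at 1.13, 1.26, 2.15, 1.68 and 2.22 CPM in luminal and 173, 194, 234, 174 and 186 CPM in basal replicates 1 to 5. No luminal library passed 35 counts, and the log2 fold change came to -6.83 (SE 0.217, adjusted p = 3.03e-11). Sema6a was at 2.56, 7.48, 3.93, 2.98 and 3.49 CPM in luminal and 161, 127, 135, 104 and 121 CPM in basal replicates 1 to 5. It was higher in all basal libraries, with a log2 fold change of -4.97 (SE 0.275, adjusted p = 2.07e-09). Sema6c was also higher in basal cells, at 34.2 ± 3.64 against 15 ± 5.29 CPM (SD, n = 5) and a log2 fold change of -1.19 (adjusted p = 0.000298). Sema6b, at low levels of 1.02 to 2.83 CPM in luminal and 0.374 to 1.64 CPM in basal libraries, was higher in luminal cells by 1.22 on the log2 scale (adjusted p = 0.0426). That call was lost with the replicate number as a block (adjusted p = 0.0900) and without any one of luminal replicates 1, 2, 3 and 4 or basal replicates 1, 3 and 4, where the adjusted p ran from 0.0523 to 0.0994.

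The level of these genes in luminal cells may be read beside the basal markers, which when summed came to a mean of 0.442% of their basal level in luminal libraries. Taken singly, the basal markers ran from 0.143% for Myh11 to 0.877% for Krt17. On the same scale the luminal mean was 0.878% of the basal mean for Sema6d, 1.11% for Slit3, 1.20% for the Eph receptor gene Ephb1, 3.15% for Sema6a, 4.03% for Robo2 and 4.82% for Robo1. In the other direction, the basal mean of Ntn1 was 6.80% of its luminal mean. The summed basal markers were highest in luminal replicate 5, at 119 CPM, and lowest in luminal replicate 1, at 41.8 CPM. The part of RNA of the other cell type in the lower values of these genes was not tested.

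Class 4 semaphorins, which include ligands of B-type plexins, split between the cell types. Sema4a (Entrez 20351, GRCm38 chromosome 3, 88435959 to 88461182) was at 24.1, 18.7, 20.2, 14.8 and 9.83 CPM in luminal and 2.81, 4.30, 3.95, 5.5 and 3.12 CPM in basal replicates 1 to 5. Luminal libraries were all higher, at a log2 fold change of 2.16 (SE 0.270, adjusted p = 7.79e-06). Sema4d (Entrez 20354, GRCm38 chromosome 13, 51685529 to 51793678), which encodes a ligand of plexin-B1, was at 109, 78.1, 83.5, 58.2 and 72.8 CPM in luminal and 14.9, 20.5, 20.4, 19.2 and 18.4 CPM in basal replicates 1 to 5. The groups did not overlap, and the log2 fold change came to 2.10 (SE 0.174, adjusted p = 1.09e-07). In the other direction, Sema4g (Entrez 26456, GRCm38 chromosome 19, 44988743 to 45003397) was at 1.69, 3.53, 3.07, 0.229 and 1.90 CPM in luminal and 12.5, 13.6, 10.2, 15.1 and 11.1 CPM in basal replicates 1 to 5. Here the basal libraries were higher, by a log2 fold change of -2.56 (SE 0.426, adjusted p = 0.000111).

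Sema4b and Sema4c were well expressed in both cell types. Sema4b was at 53.8, 43.6, 42.7, 35.7 and 40.4 CPM in luminal and 48.8, 85.9, 81.2, 58.3 and 52.5 CPM in basal replicates 1 to 5. The ranges overlapped, and the log2 fold change of -0.59 passed the threshold (SE 0.181, adjusted p = 0.0102), but not with library totals alone (-0.40, adjusted p = 0.0779). Sema4c was at 289.8, 222, 269.9, 212 and 150.2 CPM in luminal and 308, 355, 341, 245 and 257 CPM in basal replicates 1 to 5. Basal was higher in all 5 same-numbered pairs although the groups overlapped, and Sema4c was not called (log2 fold change -0.40, SE 0.183, adjusted p = 0.0707). With the replicate number as a block the adjusted p of Sema4c was 0.0291, and it was 0.0395, 0.0488 and 0.0427 without luminal replicate 1, luminal replicate 3 and basal replicate 4. Of the exon bases of Sema4c, 7.27% overlap a transcript of the opposite strand, and how the counting treated strand is not given in the sources used here.

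Class 5 semaphorins, transmembrane proteins with thrombospondin repeats, contained both a member higher in luminal and one higher in basal cells. Sema5b (Entrez 20357, GRCm38 chromosome 16, 35541154 to 35664261) was at 441, 1085, 681, 2153 and 719.9 CPM in luminal and 375, 297, 323, 614 and 278 CPM in basal replicates 1 to 5. Replicate 4 was the highest library in both groups. The groups overlapped, since luminal replicate 1 lay below basal replicate 4, but the luminal library was higher in all 5 same-numbered pairs, and the log2 fold change came to 1.43 (SE 0.369, adjusted p = 0.00364). Without both replicate 4 libraries it was 1.20 (adjusted p = 0.000644), and with single libraries left out it ran from 0.95 to 1.66. The other member of the class, Sema5a (Entrez 20356, GRCm38 chromosome 15, 32244813 to 32696341), went the other way, at 3.13, 1.32, 1.47, 0.153 and 0.825 CPM in luminal and 17.7, 32.3, 37.2, 30.4 and 28.7 CPM in basal replicates 1 to 5. Every basal library of Sema5a was higher, and its log2 fold change came to -4.38 (SE 0.446, adjusted p = 9.65e-07).

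Of the 7 class 3 semaphorins, which are secreted, 5 were tested and 2 were higher in basal cells (40.0%, against 31.2% of all genes tested). Sema3c was at 15.9 ± 2.84 CPM in luminal and 60.4 ± 15.2 CPM in basal cells (SD, n = 5), a log2 fold change of -1.92 (adjusted p = 1.06e-06). Sema3b was higher in basal cells by -1.35 on the log2 scale (adjusted p = 0.0152) at levels below 2 CPM in all libraries, and without basal replicate 2 the adjusted p was 0.0546. Sema3f was the most abundant of the class per kilobase in luminal cells, at 15 ± 3.76 CPM per kb, and in basal cells, at 10.7 ± 2.68, it differed by less than its SD from Sema3c, at 8.46 ± 2.13 (SD, n = 5). Its libraries were at 99.1, 62.7, 91.2, 52.6 and 83.5 CPM in luminal and 40.0, 66.3, 54.1, 45.3 and 73.2 CPM in basal replicates 1 to 5. The groups overlapped and Sema3f was not called (log2 fold change 0.48, SE 0.205, adjusted p = 0.0528). Its adjusted p was 0.0358, 0.0148 and 0.0260 without luminal replicate 2, luminal replicate 4 and basal replicate 5. Sema3d and Sema3e were not called (log2 fold changes -0.07 and -0.53). Sema7a, the membrane-anchored semaphorin that binds integrins and plexin-C1, was at 1.78 to 5.11 CPM and not called (log2 fold change 0.39, adjusted p = 0.284).

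**Figure D3:**
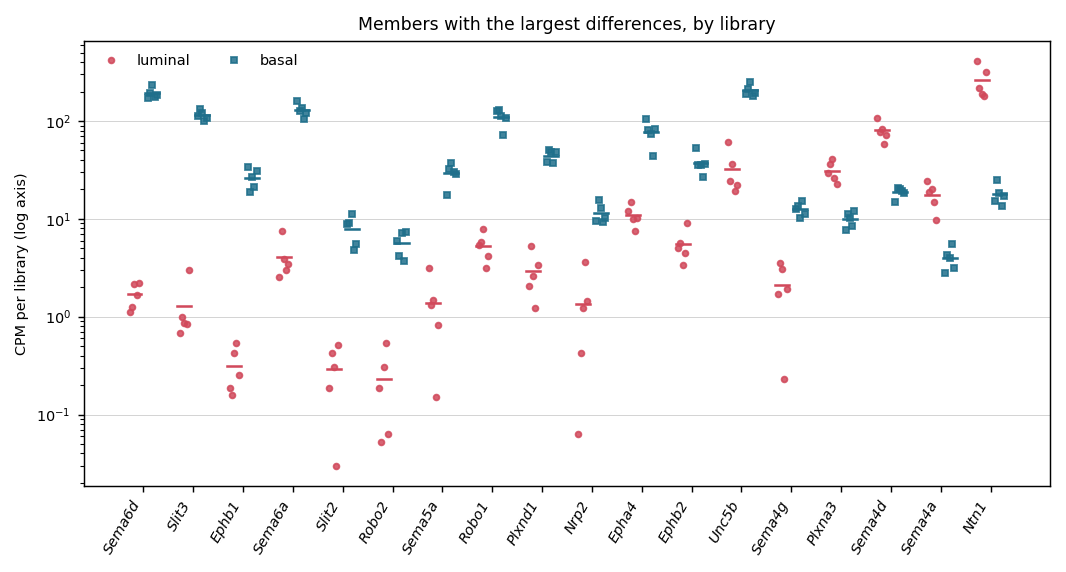
CPM on a log axis in each of the 5 luminal (red circles) and 5 basal (blue squares) libraries, with a line at each group's mean, for the 18 members named for large differences in the text; the luminal library of Slit2 with no count is drawn near the foot of the axis. The groups are separate for each of the 18 genes, with basal higher for 14 and luminal higher for Plxna3, Sema4d, Sema4a and Ntn1.

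Among the semaphorin receptors, 4 of the 6 plexins tested were higher in basal cells (66.7%, against 31.2% of all genes tested) and 1 in luminal cells (16.7%, against 33.6%). Plxnd1 (Entrez 67784, GRCm38 chromosome 6, 115954811 to 115995339), which encodes the plexin that binds class 3 semaphorins including SEMA3E, was at 2.06, 5.27, 2.58, 1.22 and 3.36 CPM in luminal and 37.7, 50.3, 48.1, 36.9 and 48.0 CPM in basal replicates 1 to 5. Its log2 fold change of -3.91 (SE 0.301, adjusted p = 5.42e-08) came from groups that did not overlap. Plxna3 (Entrez 18846, GRCm38 chromosome X, 74328290 to 74344689), a neuropilin-associated plexin, was the one receptor called higher in luminal cells, at 29.4, 36.5, 40.7, 26.3 and 22.5 CPM in luminal and 7.67, 11.2, 10.3, 8.44 and 12.0 CPM in basal replicates 1 to 5. Its lowest luminal library stood above its highest basal one (log2 fold change 1.65, SE 0.198, adjusted p = 5.11e-06). The related Plxna1, of which 10.7% of exon bases overlap an antisense transcript, was at 52.0, 27.7, 42.9, 19.9 and 41.4 CPM in luminal and 72.1, 106, 97.7, 83.3 and 111 CPM in basal replicates 1 to 5. In contrast to Plxna3, basal libraries were higher, at a log2 fold change of -1.35 (SE 0.229, adjusted p = 0.000129). Plxna2 was higher in basal cells at low levels, 4.47 ± 1.14 against 1.91 ± 0.878 CPM (SD, n = 5), with a log2 fold change of -1.22 (adjusted p = 0.00767).

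Of the B-type plexins, receptors of class 4 semaphorins, 2 were tested. Plxnb2 was at 475, 326, 324, 271 and 389.9 CPM in luminal and 241, 309.6, 306, 291 and 271 CPM in basal replicates 1 to 5. It had the highest level per kilobase of all plexins in both cell types, at 46.3 ± 10.1 and 36.7 ± 3.68 CPM per kb (SD, n = 5), and was not called (log2 fold change 0.33, SE 0.162, adjusted p = 0.0848), although without luminal replicate 4 the adjusted p was 0.0282. Plxnb1 was at 93.1, 88.1, 108, 56.5 and 91.7 CPM in luminal and 92.7, 131, 137, 113 and 126 CPM in basal replicates 1 to 5. The groups overlapped, and the log2 fold change of -0.46 (SE 0.170, adjusted p = 0.0287) was not past the threshold without luminal replicate 2, basal replicate 2, basal replicate 3 or basal replicate 5 (adjusted p = 0.0535, 0.0585, 0.0725 and 0.0589), nor with upper-quartile factors or library totals (0.0919 and 0.252). Of the neuropilins, Nrp2 (Entrez 18187, GRCm38 chromosome 1, 62703317 to 62818692) was at 0.0625, 0.421, 1.23, 3.59 and 1.46 CPM in luminal and 9.48, 15.6, 12.8, 9.25 and 10.1 CPM in basal replicates 1 to 5. Basal libraries were all higher, with a log2 fold change of -3.11 (SE 0.576, adjusted p = 0.000281), and without luminal replicate 4 it was -3.85. Nrp1 was at 0.750, 3.58, 1.90, 1.60 and 1.46 CPM in luminal and 0.499, 0.682, 0.619, 2.38 and 0.300 CPM in basal replicates 1 to 5. It was not called (log2 fold change 1.05, SE 0.579, adjusted p = 0.126), but without basal replicate 4 the log2 fold change was 1.81 (adjusted p = 0.0092).

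Of the 11 Eph receptors tested, 7 were higher in basal cells (63.6%, against 31.2% of all genes tested) and 4 were not called. Among them, Ephb1 met the filter in basal cells alone and Epha6 in luminal cells alone. Ephb1 (Entrez 270190, GRCm38 chromosome 9, 101922128 to 102354693) had the largest difference, with 0.188, 0.158, 0.429, 0.534 and 0.254 CPM in luminal and 33.6, 18.8, 26.8, 20.9 and 30.6 CPM in basal replicates 1 to 5. At most 7 counts were found in a luminal library, and the log2 fold change came to -6.39 (SE 0.324, adjusted p = 9.06e-10). Ephb2 (Entrez 13844, GRCm38 chromosome 4, 136647536 to 136836326) was at 5.00, 5.69, 3.37, 4.43 and 9.07 CPM in luminal and 52.6, 35.5, 35.8, 26.8 and 36.7 CPM in basal replicates 1 to 5. Its groups were separate, at a log2 fold change of -2.76 (SE 0.260, adjusted p = 4.31e-07). Ephb4 (Entrez 13846, GRCm38 chromosome 5, 137350109 to 137374522), the receptor of ephrin-B2, was at 72.4, 33.2, 54.6, 40.1 and 66.0 CPM in luminal and 105, 159, 177, 157 and 135 CPM in basal replicates 1 to 5. All basal libraries were higher (log2 fold change -1.46, SE 0.215, adjusted p = 3.66e-05). Ephb6, which encodes a receptor without kinase activity, was higher in basal cells by a log2 fold change of -1.37 (adjusted p = 0.000312). Ephb3 was the exception in its class, at 76.0, 51.5, 68.7, 41.5 and 69.2 CPM in luminal and 82.5, 62.9, 60.5, 56.3 and 80.2 CPM in basal replicates 1 to 5. Its groups overlapped and it was not called (log2 fold change -0.16, SE 0.179, adjusted p = 0.457), with the opposite sign under library totals (0.043).

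Of the A-type Eph receptors, Epha4 (Entrez 13838, GRCm38 chromosome 1, 77367182 to 77515107), which binds ephrins of both types, was at 11.9, 14.9, 10.1, 7.56 and 10.2 CPM in luminal and 105, 80.6, 72.9, 43.4 and 83.0 CPM in basal replicates 1 to 5. It was higher in every basal library, with a log2 fold change of -2.81 (SE 0.238, adjusted p = 1.41e-07). Epha2 (Entrez 13836, GRCm38 chromosome 4, 141301221 to 141329384), a receptor widely expressed in epithelia, was at 61.5, 76.0, 83.4, 61.5 and 69.6 CPM in luminal and 153, 123, 99.5, 110.0 and 169 CPM in basal replicates 1 to 5. The groups did not overlap, and the log2 fold change came to -0.90 (SE 0.164, adjusted p = 0.000254). Epha7 was higher in basal cells at 7.74 ± 1.39 against 3.44 ± 1.49 CPM (SD, n = 5; adjusted p = 0.0036). Epha1, at 20.2 ± 3.96 CPM in luminal and 18.3 ± 1.94 CPM in basal cells (SD, n = 5), and Epha5 were not called (log2 fold changes 0.14 and 0.52), and the log2 fold change of Epha5 was 0.69 without luminal replicate 1 (adjusted p = 0.0347), 0.20 without luminal replicate 4 and 0.28 without both replicate 4 libraries (adjusted p = 0.318). Epha6, at a log2 fold change of 0.85, was likewise not called, and without luminal replicate 4 its value was 0.08. Epha2 was the most abundant EphA receptor per kilobase in both cell types, at 15.1 ± 2.02 CPM per kb in luminal and 28.0 ± 6.26 in basal cells (SD, n = 5), and Ephb4 the most abundant EphB receptor in basal cells, at 31.6 ± 6.00. In luminal cells Ephb4, at 11.5 ± 3.58, and Ephb3, at 9.24 ± 2.16 CPM per kb, differed by less than the SD of Ephb4.

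Ephrins are the ligands of these receptors. Of 8 tested, 2 were higher in basal cells (25%, against 31.2% of all genes tested), 1 in luminal cells (12.5%, against 33.6%) and 5 were not called. Among them, Efnb3 met the filter in basal cells alone. Efna1 (Entrez 13636, GRCm38 chromosome 3, 89271730 to 89280951), a main ligand of EphA2, was at 204, 226, 221, 194 and 133 CPM in luminal and 211, 203, 243, 276 and 211 CPM in basal replicates 1 to 5. The ranges overlapped and Efna1 was not called (log2 fold change -0.22, SE 0.160, adjusted p = 0.233). Per kilobase, Efna1 was the highest of all members in basal cells, at 125 ± 16.8 CPM per kb, and at 107 ± 20.2 CPM per kb was next to Sema5b, at 144 ± 95.5, in luminal cells (SD, n = 5 each). Those luminal levels of Sema5b and Efna1 differed by less than the SD of Sema5b, and their order turned without luminal replicate 4, at 103 ± 37.5 CPM per kb for Sema5b and 107 ± 23.3 for Efna1 (SD, n = 4), as it did by the medians of all 5 libraries, 102 and 111. Efna5 (Entrez 13640, GRCm38 chromosome 17, 62602957 to 62881317) was at 38.6, 36.2, 28.1, 60.1 and 35.5 CPM in luminal and 90.4, 82.2, 79.5, 88.8 and 92.1 CPM in basal replicates 1 to 5. It was higher in all basal libraries, by a log2 fold change of -1.13 (SE 0.178, adjusted p = 7.02e-05).

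Efna3 was the ephrin higher in luminal cells, at 19.7 ± 5.16 against 11.9 ± 3.14 CPM (SD, n = 5) with overlapping groups and a log2 fold change of 0.73 (adjusted p = 0.0116), and 14.1% of its exon bases overlap an antisense transcript. Efnb1 was at 72.4, 38.2, 54.3, 35.5 and 61.1 CPM in luminal and 30.9, 47.8, 61.0, 50.3 and 56.9 CPM in basal replicates 1 to 5. It was not called, and its log2 fold change of 0.08 (SE 0.220, adjusted p = 0.755) became -0.045 without luminal replicate 1 and -0.058 without basal replicate 1. Efnb2 was at 17.3 ± 6.05 CPM in luminal and 24.4 ± 6.47 CPM in basal cells (SD, n = 5; log2 fold change -0.49, adjusted p = 0.082), and without luminal replicate 2 the log2 fold change was -0.71 (adjusted p = 0.0113). Efnb3 was higher in basal cells at 2.49 ± 0.440 against 0.531 ± 0.579 CPM (SD, n = 5; log2 fold change -2.19, adjusted p = 0.011), and without luminal replicate 3 the log2 fold change was -2.95. Efna2 and Efna4 were not called, with log2 fold changes of -0.23 and -0.16.

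**Figure D4:**
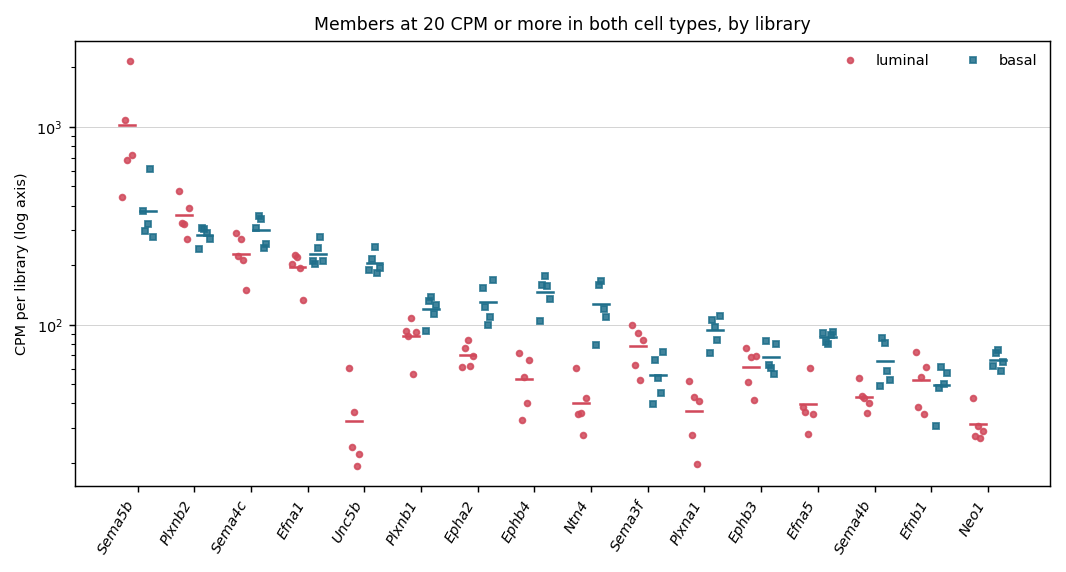
CPM on a log axis in each of the 5 luminal (red circles) and 5 basal (blue squares) libraries, with a line at each group's mean, for the 16 members with a mean of at least 20 CPM in both cell types, ordered by overall mean. The luminal replicate 4 library of Sema5b stands at 2153 CPM, and the groups overlap for Plxnb2, Sema4c, Efna1, Plxnb1, Sema3f, Ephb3, Sema4b, Efnb1 and Sema5b.

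In both cell types, 16 members had a mean of at least 20 CPM. Of these 16, 9 were higher in basal cells (56.2%, against 31.2% of all genes tested), without overlap for Epha2, Ephb4, Efna5, Ntn4, Neo1, Unc5b and Plxna1 (43.8%, against 25.3%) and with overlap for Plxnb1 and Sema4b. Sema5b was higher in luminal cells (6.25%, against 33.6%), with overlap, and 6 were not called (Ephb3, Efna1, Efnb1, Plxnb2, Sema3f and Sema4c). Ordered by level per kilobase, the highest in luminal cells were Sema5b and Efna1, whose order is not resolved, Sema4c at 49.8 CPM per kb, Plxnb2 at 46.3 and Ntn1 at 42.0. In basal cells the order was Efna1, Sema4c at 65.6, Sema5b at 53.3, Plxnb2 at 36.7, Ntn4 at 34.0, Unc5b at 32.8 and Ephb4 at 31.6 CPM per kb. Neighbours from Sema4c to Ntn1 in the luminal order, and from Plxnb2 to Ephb4 in the basal order, lay within 1 SD of each other, and basal Sema5b, with an SD of 19.4, lay within that SD of both its neighbours.

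Of the 14 members not tested, Plxnb3 had no count in any library, which allows at most 0.158 to 0.232 CPM, and Epha8 had 1 count in 1 library. Sema3a reached 3.28 CPM in luminal replicate 4 and Plxnc1 1.75 CPM in basal replicate 4, and both stayed below 1 CPM in their other libraries. Sema4f was at 4.38, 0.421, 0.552, 1.60 and 7.11 CPM in luminal and 0, 0.205, 0, 0 and 0.0599 CPM in basal replicates 1 to 5, so the groups did not overlap. Plxna4 was at 0 to 0.127 CPM in luminal and 0 to 2.06 CPM in basal libraries. With the filter removed, edgeR called Sema4f higher in luminal cells (adjusted p = 0.000227) and Plxna4, Robo4 and Sema3g higher in basal cells (adjusted p = 0.00261, 0.00286 and 0.0449). Those 4 genes were named after their values were seen.

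**Figure D5:**
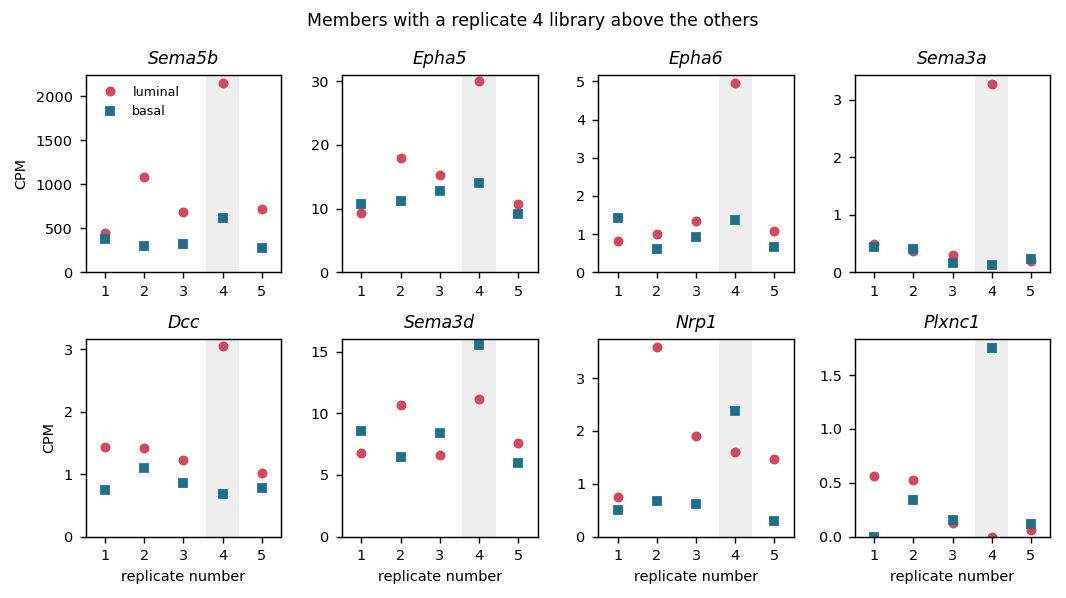
CPM by replicate number in luminal (red circles) and basal (blue squares) libraries for 8 members with a replicate 4 library above the others, with replicate 4 shaded. Luminal replicate 4 stands at 2153 CPM for Sema5b and 30.0 CPM for Epha5, and basal replicate 4 at 15.6 CPM for Sema3d and 2.38 CPM for Nrp1.

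The replicate 4 libraries stood apart for several members. By Dixon's test on 5 libraries (95% critical value 0.71), luminal replicate 4 lay above the other luminal libraries for Epha6, Dcc and Sema3a and below them for Sema3e, and basal replicate 4 lay above the other basal libraries for Sema5b, Sema3d, Nrp1, Plxnc1 and Unc5a. Luminal replicate 4 also had the smallest total of all libraries, 13203146 counts. Both replicate 4 libraries had the highest summed immune markers of their groups. Without both of them, 9 members were called for luminal (16.7%, against 34.2% of all genes tested) and 29 for basal cells (53.7%, against 31.3%), and 35 of the 36 genes called with all libraries were also called.

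Promoter sequence is shown for members at both ends of the range, so that the motifs of factors active in the epithelium can be looked up in them. Sequences are from RefSeq on build GRCm38.p6, 250 bases upstream of 1 annotated start per gene, and 58 of the 68 members were matched. For Sema4d and Plxna3 that start lies within the gene's outermost bounds. Capitals mark matches on either strand to AGATAA, bound by factors of the GATA family, CATTCC, bound by TEAD factors, CACCTG, an E-box of the Snail and ZEB type, AGGAAG, an ETS motif, GGGCGG, the GC box, and CACGTG, a palindromic E-box, and each sequence reads 5′ to 3′ on the strand of its gene. The first 3 sequences are those of the members with the largest differences towards basal cells, Sema6d (chr2:124089719-124089968, plus strand), Slit3 (chr11:35121206-35121455, plus strand) and Ephb1 (chr9:102354694-102354943, minus strand).
Sema6d: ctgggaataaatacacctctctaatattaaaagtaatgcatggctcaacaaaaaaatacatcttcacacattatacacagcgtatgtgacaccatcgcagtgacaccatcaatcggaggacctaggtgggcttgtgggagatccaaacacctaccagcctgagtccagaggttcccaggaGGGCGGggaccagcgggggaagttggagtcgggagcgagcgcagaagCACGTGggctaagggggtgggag
Slit3: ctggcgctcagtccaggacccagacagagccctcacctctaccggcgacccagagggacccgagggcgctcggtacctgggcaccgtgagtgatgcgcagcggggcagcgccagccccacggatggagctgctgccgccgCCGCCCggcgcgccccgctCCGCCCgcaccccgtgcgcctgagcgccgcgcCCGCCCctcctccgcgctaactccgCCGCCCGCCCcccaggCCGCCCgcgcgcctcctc
Ephb1: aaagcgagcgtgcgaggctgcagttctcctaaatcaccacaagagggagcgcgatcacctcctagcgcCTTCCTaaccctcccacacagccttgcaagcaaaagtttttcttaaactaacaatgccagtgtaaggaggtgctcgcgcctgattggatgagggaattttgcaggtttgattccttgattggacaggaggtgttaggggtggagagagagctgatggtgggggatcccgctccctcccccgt

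The next 3 are those of the members with the largest differences towards luminal cells that were matched, Sema4a (chr3:88461183-88461432, minus strand), Sema4d (chr13:51756684-51756933, minus strand) and Plxna3 (chrX:74328816-74329065, plus strand).
Sema4a: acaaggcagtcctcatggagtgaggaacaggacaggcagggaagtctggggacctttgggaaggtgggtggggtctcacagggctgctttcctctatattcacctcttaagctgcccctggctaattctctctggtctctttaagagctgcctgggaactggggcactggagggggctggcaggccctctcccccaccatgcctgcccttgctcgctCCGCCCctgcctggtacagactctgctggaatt
Sema4d: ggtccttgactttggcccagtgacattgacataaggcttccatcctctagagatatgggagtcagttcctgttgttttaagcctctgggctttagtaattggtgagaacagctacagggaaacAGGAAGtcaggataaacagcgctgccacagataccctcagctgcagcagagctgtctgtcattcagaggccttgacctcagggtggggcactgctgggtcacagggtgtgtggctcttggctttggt
Plxna3: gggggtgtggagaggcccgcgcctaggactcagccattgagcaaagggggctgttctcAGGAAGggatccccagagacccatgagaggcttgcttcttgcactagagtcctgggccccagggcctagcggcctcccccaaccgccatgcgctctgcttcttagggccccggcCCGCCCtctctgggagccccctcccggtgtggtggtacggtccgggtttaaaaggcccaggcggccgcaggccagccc

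Slit3 holds 6 GC boxes, some of them overlapping, Sema6d, Sema4a and Plxna3 hold 1 each, and Ephb1 and Sema4d hold none. The bases of the window are G or C in 52.4% for Sema6d, 78.8% for Slit3 and 54.0% for Ephb1, and in 59.6% for Sema4a, 52.0% for Sema4d and 68.0% for Plxna3. Over all 58 matched members the median was 64.8%, against 52.0% over 27025 promoters, and the median ratio of observed to expected CpG was 0.656, against 0.379. A GC box was found in 21 of 25 promoters of members higher in basal cells, 4 of 6 higher in luminal cells and 12 of 15 not called, against 33.0% of all promoters. AGGAAG was found in 5 of 25, 2 of 6 and 6 of 15 (29.2% of all promoters), CACCTG in 2, 0 and 4 (17.1%), CATTCC in 3, 0 and 2 (12.6%), AGATAA in 0, 0 and 1 (10.2%) and CACGTG in 2, 0 and 0 (6.04%). Matches of letters are a description of these windows and were not tested.

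Genes that act beside or downstream of the guidance receptors were examined as 3 lists. Of 22 small GTPases, exchange factors and GTPase-activating proteins tested, 9 were higher in basal cells (40.9%, against 31.2% of all genes tested), 8 in luminal cells (36.4%, against 33.6%) and 5 were not called. Rnd1 and Rnd3, atypical small GTPases that act in plexin signalling and against contraction, were at 27.0 ± 6.13 and 169 ± 15.6 CPM in basal against 3.05 ± 0.839 and 19.4 ± 5.65 CPM in luminal cells (SD, n = 5), with log2 fold changes of -3.15 and -3.12 (adjusted p = 4.82e-08 and 7.77e-09). Chn1, a Rac GTPase-activating protein that acts downstream of EphA4, and Mras were higher in luminal cells (log2 fold changes 4.17 and 1.87, adjusted p = 1.56e-07 and 1.79e-05). The median of this list was -0.26.

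Of 28 kinases, adaptors and cytoskeletal proteins tested out of 30, 14 were higher in basal (50%, against 31.2% of all genes tested) and 9 in luminal cells (32.1%, against 33.6%), with a median log2 fold change of -0.35. Dpysl2 and Dpysl3, which encode collapsin response mediator proteins acting downstream of class 3 semaphorins, had log2 fold changes of -6.47 and -6.83 (adjusted p = 2.68e-10 and 3.24e-10). Dpysl3 was at 1.06, 1.42, 2.21, 1.15 and 3.17 CPM in luminal and 185, 221, 244, 142 and 239 CPM in basal replicates 1 to 5. Ablim1, an actin-binding protein, and Rgs3, which binds ephrin-B tails, were higher in luminal cells (log2 fold changes 3.46 and 3.30, adjusted p = 8.37e-09 and 5.24e-08). Of 20 co-receptors, other ligands and modulators tested out of 26, 11 were higher in basal (55.0%, against 31.2% of all genes tested) and 5 in luminal cells (25%, against 33.6%), with a median of -0.86. The netrin-G2 gene Ntng2 and the cell adhesion gene Nrcam were higher in basal cells (log2 fold changes -6.46 and -3.02, adjusted p = 1.31e-07 and 0.000486), and Adam10, a protease that cleaves ephrins and their receptors, and Erbb2, a partner of plexin-B receptors, were higher in luminal cells (2.99 and 1.81, adjusted p = 1.77e-09 and 2.13e-07). Without luminal replicate 4, which had the highest luminal values of Ntng2 and Nrcam (2.06 and 1.99 CPM), their log2 fold changes were -7.84 and -4.04.

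Several members are also known from vessels, nerves and stroma, so the markers of those cells are given beside the results. Of 10 endothelial markers 7 were tested, 2 were higher in each cell type, and their summed level was 37.0 to 53.6 CPM in luminal and 19.2 to 32.3 CPM in basal libraries. Most of the luminal sum was Eng, at 35.5 ± 6.65 CPM in luminal and 9.82 ± 1.94 CPM in basal cells (SD, n = 5), and without Eng the sums were 6.88 to 14.8 and 12.3 to 20.6 CPM. Within that list Cdh5 was at 0.217 ± 0.167 CPM in luminal and 4.58 ± 1.48 CPM in basal cells, Esam at 0.0991 ± 0.136 and 2.21 ± 0.358 CPM (SD, n = 5 each), and Kdr stayed below 1 CPM in every library. Of 6 pericyte markers 5 were tested, of which 4 were higher in basal cells, among them Rgs5 at 21.7 ± 4.81 against 0.159 ± 0.357 CPM (SD, n = 5), and Notch3 was higher in luminal cells. The summed level of that list, most of it Notch3 in luminal libraries, was 94.9 to 269 CPM in luminal and 35.4 to 48.8 CPM in basal libraries. Of 8 fibroblast markers 2 were higher in basal and 1 in luminal cells, with sums of 27.9 to 117 CPM in luminal and 61.7 to 112 CPM in basal libraries. Of 8 nerve and Schwann cell markers 5 were tested, 2 were higher in each cell type, with sums of 364 to 462 CPM in luminal and 402 to 436 CPM in basal libraries, and Nefl had no count in any library. Of 8 immune markers 4 were tested, 2 were higher in each cell type, with sums of 15.9 to 22.2 CPM in luminal and 26.5 to 53.1 CPM in basal libraries, and Cd3e had no count in any library. Per the study's methods, cells for sorting were also stained with lineage antibodies, among them those against CD31 and CD45. That this holds for the libraries here was assumed. The part of such cells in the members' differences was not tested.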

How the data were processed

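Transcripts were measured by RNA sequencing in 10 libraries of sorted cells, 5 labelled luminal and 5 labelled basal. The table the authors deposited holds unnormalized read counts, whole numbers for each gene and library, under NCBI Entrez identifiers. The submitters' processing notes name cutadapt 4.2 and Bowtie2 2.3.5.1 and the build mm10. Per the study's methods, single-end reads of poly(A)-selected libraries were aligned at default settings. These methods describe fewer replicates than the 5 per cell type here, so that they hold for these libraries was assumed. Bowtie2 makes no spliced alignments. How reads were counted, with which annotation and with what use of strand, is not given in the sources used here, so members whose exons overlap another gene are uncertain.

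Symbols and coordinates came from a RefSeq gene table of GRCm38.p6, which matched 24570 of 24594 identifiers. Genes were filtered with filterByExpr of edgeR 4.0.16 (R 4.3.3) at its defaults (minimum count 10, minimum total count 15, which asked for 0.651 CPM in 5 libraries), leaving 14609. The cell types were compared by the quasi-likelihood test of edgeR after TMM scaling, with no covariate and Benjamini-Hochberg adjustment over all genes tested, and an adjusted p under 0.05 was called. Standard errors (SE) were taken as the absolute log2 fold change over the square root of F. CPM used TMM-scaled totals, and levels were compared between genes only per kilobase of merged GENCODE M21 exons. With 13203146 to 17998165 counts per library, 3 counts, taken as the limit that a count of 0 allows, came to 0.158 to 0.232 CPM. That limit covers counting error only.

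Replicate numbers came from the titles, and same-numbered luminal and basal libraries share a leading number in their descriptions, which was read as the animal and is where the pairing comes from. Their deviations from the group means correlated at -0.134 to 0.252 (mean 0.0442, against -0.00718 for different numbers). No batch is labelled. Replicates differed by more than sampling noise, with a chi-square per degree of freedom of at least 15.2, so none was counted as a repeat of another.

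Values in every library are given for members with an adjusted p under 0.05, at least 5 CPM in the higher group, a log2 fold change of at least 1.5 in size and 1 direction in all 5 pairs (at most 14 per direction), and for members at 20 CPM or more in both groups. From each list of other pathway genes the 2 largest changes per direction at 5 CPM or more are named. The members and lists were chosen with earlier results of these data known. Alternatives were DESeq2 1.42.0 or limma 3.58.1 (voom) in place of edgeR, other scaling and filters, the replicate number as a block, a test against a 2-fold change and leaving out each library. Leaving out both replicate 4 libraries was added after seeing the data. The test was tested on simulated counts. Protein sequences were not analysed here.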

Additional observations from a re-analysis of the deposited data

Results flagged for a closer look

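For each member, the 5 libraries of a cell type were examined for a value set apart from the rest with Dixon's test. Of 126 such groups, 12 held one, and 10 groups with no library above 3 counts were left out. About 6.3 would be had by chance if values were normally distributed and groups independent. Several of the 12 rest on low counts and the groups share libraries, so how many to expect by chance here is not known. Basal replicate 4 accounted for 5 of the 12 and luminal replicate 4 for 4.

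The members highest in luminal replicate 4 were Epha6 with 4.96 CPM (other luminal libraries 0.813 to 1.35), Dcc with 3.05 CPM (1.02 to 1.44) and Sema3a with 3.28 CPM (0.190 to 0.5). Sema3e was lowest there, with 0.0764 CPM, which is 1 count (1.19 to 1.52 CPM elsewhere among luminal libraries). Basal replicate 4 held the highest basal value of Sema5b, 614 CPM (278 to 375 in the remaining basal libraries), and of Sema3d, 15.6 CPM (5.99 to 8.54). It also held the highest values of Nrp1, 2.38 CPM (0.300 to 0.682), and Plxnc1, 1.75 CPM (0 to 0.341). For Unc5a it had 0.563 CPM, or 9 counts, and the remaining basal libraries had none.

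Outside replicate 4, the receptor gene Neo1 reached 42.8 CPM in luminal replicate 1, with 26.7 to 30.8 CPM in the remaining luminal libraries. Sema6a reached 7.48 CPM in luminal replicate 2 (2.56 to 3.93 elsewhere), and Slit3 reached 2.98 CPM in luminal replicate 5 (0.688 to 1.00 elsewhere). All 3 values stayed below those of every basal library. The summed basal markers were highest among luminal libraries in replicate 5, at 119 CPM, and their part in the Slit3 value was not tested.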

How the results depend on the processing

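Over 1067 values of members under the alternatives, 997 kept their direction and their side of the threshold, 33 lost a call, 27 gained one and 10 changed sign. These counts leave out members not tested in the reported fit or in the alternative. Calls gained by Sema4f, Plxna4, Robo4 and Sema3g with the filter removed are thus not among them. With at least 10 counts in every library, 27 of the 36 reported calls were kept, and members dropped by that filter are not counted as lost. The 7 members higher in luminal cells became 11 with library totals alone (20.4%, against 39.1% of all genes) and 4 with a test against a 2-fold change (7.41%, against 13.1%). The 29 higher in basal cells became 17 with that test (31.5%, against 13.7% of all genes), which asks for more than a difference from 0. Leaving out single libraries left 6 to 8 members called for luminal and 27 to 30 for basal cells. Of all genes tested in those settings, 31.2% to 33.8% were called for luminal and 28.6% to 31.1% for basal cells. The median log2 fold change of the members ran from -0.81 to -0.59. The median of -0.74 became -0.49 with at least 10 counts in every library, a filter that left 41 members. With the replicate number as a block, 6 members were called for luminal cells (11.1%, against 32.4% of all genes). For basal cells 30 were called (55.6%, against 31.1%), and the median was -0.725. Of 36 calls 35 were shared, Sema6b losing its call and Sema4c gaining one, while the block changed no other call. Values that changed sign belonged to genes that were not called, and the cause was not tested. They were, on the log2 scale, Efna4 (0.029) and Ephb3 (0.043) with library totals, Sema3d with upper-quartile factors (0.053), library totals (0.11) and without both replicate 4 libraries (0.11), and Sema3e (0.029) without both replicate 4 libraries. With single libraries left out, Efnb1 ran from -0.058 to 0.19 and Sema3d from -0.18 to 0.21. Sema6b lost its call in 11 settings and Plxnb1 in 7, and Sema3f gained one in 8. At these totals 1 count was worth 0.0527 to 0.0774 CPM, so differences of genes under about 1 CPM rest on few counts.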
